A study of Mus musculus with 12 samples.

Results

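Histone genes were read on 12 arrays of mouse neutrophils. All transcript clusters of the array that name a single gene with a symbol of the histone H1, H2A, H2B, H3 or H4 families were taken, and where a gene has several such clusters the one with the highest mean signal was kept. This gave 30 genes out of the 19938 distinct genes that the 21789 single-gene clusters name. By type they are 8 genes for H1, 4 for H2A, 9 for H2B, 3 for H3 and 6 for H4. They lie on chromosome 13 (23 genes), chromosome 3 (4 genes), chromosome 6 (2 genes) and chromosome 15 (1 gene). Neutrophils had been isolated from the bone marrow of wild-type (C57BL/6) mice and of *Card9*-/- mice, which carry the germline knockout allele Card9tm1Jrld on the C57BL/6 background. The cells, labelled as Ly6G+, were kept for 4 h either on a control surface coated with human serum albumin or on immobilized immune complexes (IC), made of human serum albumin and an antibody against it. Adherent and nonadherent cells were lysed together. Both genotypes were placed on both surfaces in each of 3 experiments, which gives 4 groups with 3 arrays in each. Whether a sample pooled animals is not stated, and all cells of a mutant lacked CARD9, not the neutrophils alone.

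Core histones (H2A, H2B, H3 and H4) form the protein spool of the nucleosome, and the linker histone H1 binds the DNA between spools. Most of their genes are replication-dependent. They lie in clusters, lack introns, and give mRNAs that end in a stem-loop bound by SLBP instead of a poly(A) tail. These mRNAs are made mainly while a cell copies its DNA and are degraded when copying stops. NPAT drives their transcription, and HINFP that of H4 genes. Mature neutrophils no longer divide, whereas their precursors in the bone marrow do, and neutrophils are known to expel histones with their DNA as extracellular traps.

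Among the 30 genes, 24 are classed here as replication-dependent and 6 are not. *H1f10* encodes a linker histone made through the whole cell cycle. *H1f6*, *H1f7*, *H2ac1* and *H2bc1* are known as testis histone genes and *H1f8* as an oocyte histone gene, and these 5 are called germ-cell histone genes here. The name replication-dependent therefore does not hold for at least 6 of the 30. The other 24 were classed by their symbols, and whether each of them gives only mRNA without a poly(A) tail was not checked. A total of 67 protein-coding genes carry a symbol of the rule in the RefSeq annotation. Of these, 36 are named only by clusters that list several histone genes, and *H1f0* was not analysed here. The 26 clusters with several histone genes list 2 to 20 genes each, and 10 of them read H3 genes. Probes for one histone gene can also bind the mRNA of its near-identical neighbours, so that each value below may hold signal of other family members. No pair of the 30 genes had identical values on the arrays.

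Promoters are shown for the genes on which the comparisons below turn: *H1f1*, *H4c6*, *H4c8*, *H4c3* and *H2bc18*, whose signals were higher on IC together in experiment 3, and *H2bc8*, whose IC response had opposite signs in the genotypes. RefSeq gave a promoter for 26 of the 30 genes (build GRCm38.p6). Each line holds the 250 bases before the annotated start, 5′ to 3′ on the strand of the gene. Capitals mark TATAAA and CCAAT, the octamer ATTTGCAT in H2B genes and GGTCC, a part of the H4 subtype-specific element, in H4 genes, each on either strand.
H1f1: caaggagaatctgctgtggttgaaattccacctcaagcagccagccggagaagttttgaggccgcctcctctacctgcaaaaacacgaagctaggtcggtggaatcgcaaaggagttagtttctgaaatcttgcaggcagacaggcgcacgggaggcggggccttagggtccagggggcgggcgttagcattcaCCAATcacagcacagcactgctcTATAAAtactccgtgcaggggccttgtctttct
H4c6: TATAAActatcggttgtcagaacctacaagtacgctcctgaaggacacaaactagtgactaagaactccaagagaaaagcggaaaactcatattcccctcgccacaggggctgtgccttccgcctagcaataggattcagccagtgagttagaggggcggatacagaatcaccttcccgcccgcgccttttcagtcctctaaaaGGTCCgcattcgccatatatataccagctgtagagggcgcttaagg
H4c8: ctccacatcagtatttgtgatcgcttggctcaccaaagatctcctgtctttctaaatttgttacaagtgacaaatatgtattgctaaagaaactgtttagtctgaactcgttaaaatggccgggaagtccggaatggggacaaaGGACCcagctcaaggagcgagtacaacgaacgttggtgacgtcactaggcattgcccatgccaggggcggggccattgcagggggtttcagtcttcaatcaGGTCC
H4c3: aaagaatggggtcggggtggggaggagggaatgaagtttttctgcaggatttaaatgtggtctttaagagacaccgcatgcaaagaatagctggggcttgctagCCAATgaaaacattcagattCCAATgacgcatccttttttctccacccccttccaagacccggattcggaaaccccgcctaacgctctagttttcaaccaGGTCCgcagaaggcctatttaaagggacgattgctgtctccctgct
H2bc18: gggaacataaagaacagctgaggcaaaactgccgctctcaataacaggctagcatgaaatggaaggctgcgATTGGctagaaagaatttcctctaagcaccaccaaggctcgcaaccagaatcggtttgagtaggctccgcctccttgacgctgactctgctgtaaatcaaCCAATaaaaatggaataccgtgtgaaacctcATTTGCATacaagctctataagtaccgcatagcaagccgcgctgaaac
H2bc8: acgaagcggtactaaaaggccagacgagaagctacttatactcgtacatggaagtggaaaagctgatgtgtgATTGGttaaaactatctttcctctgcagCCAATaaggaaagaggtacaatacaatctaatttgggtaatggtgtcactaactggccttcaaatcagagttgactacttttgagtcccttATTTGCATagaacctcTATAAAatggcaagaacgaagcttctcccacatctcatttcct
These windows lie at chr13:23763418-23763667 (*H1f1*, plus strand), chr13:23551669-23551918 (*H4c6*, minus strand), chr13:23530794-23531043 (*H4c8*, plus strand), chr13:23698459-23698708 (*H4c3*, minus strand), chr3:96269450-96269699 (*H2bc18*, plus strand) and chr13:23571150-23571399 (*H2bc8*, plus strand).

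The octamer, which the transcription factor Oct-1 binds, was found in 5 of 7 H2B and 3 of 4 H2A promoters and in 0 of the H1, H3 and H4 promoters, against 1.61% of all 27025 promoters of the same length. Among the sequences printed, *H2bc18* and *H2bc8* both hold it, close before the start. GGTCC was found in 5 of 5 H4 promoters and in 10 of 26 in all, and 39.7% of all promoters hold these letters. CCAAT was found in 20 of 26 promoters (34.5% of all promoters), TATAAA in 14 (13.0%) and the H1 box AAACACA in 8, of which 4 belong to H1 genes (6.22%). Different motifs overlapped at 0 places. The TATAAA of *H4c6* lies at the far end of its window, 250 bases before the start, and the one of *H1f1* 33 bases before it. A match describes the letters only, and other forms of an element were not searched.

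**Figure D1:**
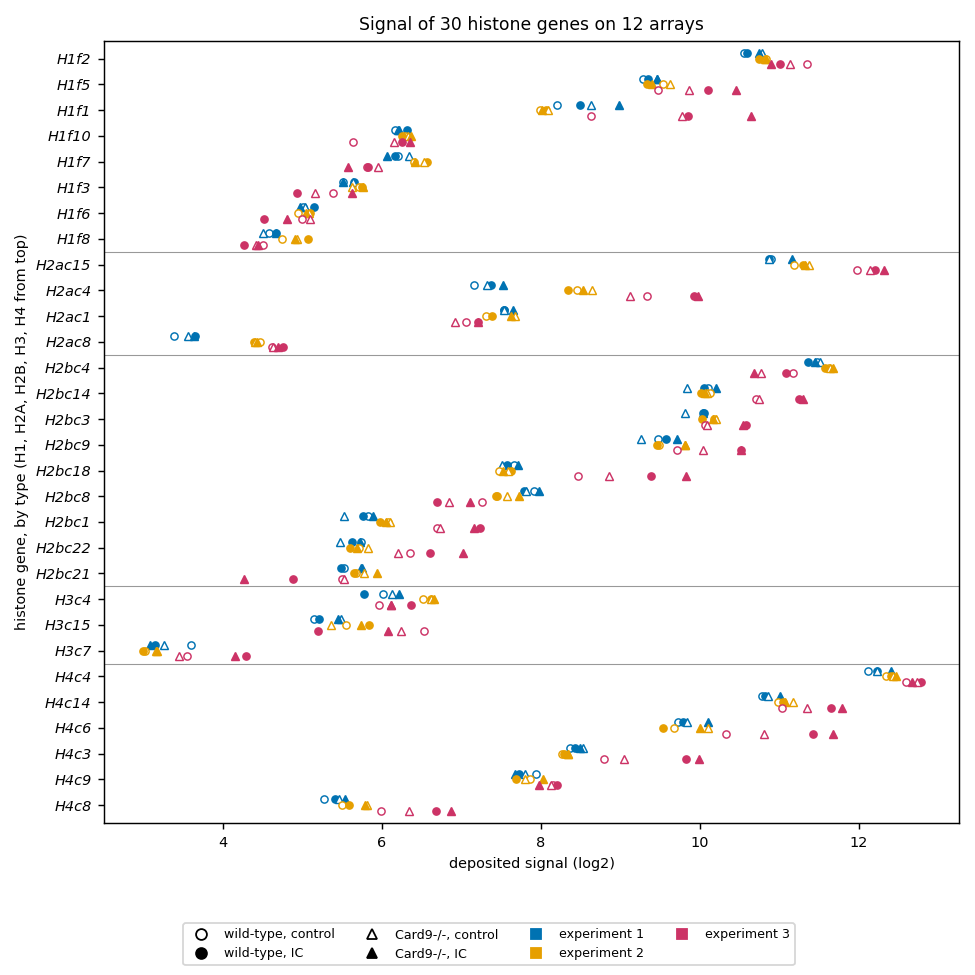
Deposited log2 signal (horizontal axis) of each of the 30 histone genes (vertical axis, by type) on the 12 arrays; open symbols are control and filled symbols IC, circles wild-type and triangles Card9-/-, and colours are the 3 experiments. For H4c6, H4c3 and H2bc18 the 4 arrays of experiment 3 lie above the other 8, with the filled symbols of that experiment highest.

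The mean log2 signal of the 30 genes was between 3.41 (*H3c7*) and 12.45 (*H4c4*), against a median of 5.65 over all tested clusters. Signals of different probe sets do not measure relative amounts of RNA, so that genes are compared only with themselves. Of the members with the highest mean in each type, *H1f2* and *H1f5* (main somatic linker histones) were at 10.86 and 9.61, *H2ac15* and *H2ac4* at 11.47 and 8.48, *H2bc4* and *H2bc14* at 11.33 and 10.37, *H3c4* and *H3c15* at 6.26 and 5.65, and *H4c4* and *H4c14* at 12.45 and 11.13. The clusters with several histone genes had a median mean of 12.50 and array values up to 13.13, and the arrays themselves ended between 13.42 and 13.78. H3 genes are read mostly by such clusters, close to the upper end of the scale, and the 3 single H3 genes cover a small part of them.

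The experiments differed more than the groups. Differences between experiments took a median of 74.9% of the sum of squares of a histone gene over the 12 arrays, and differences between the 4 groups 8.76%. Over all clusters the medians were 82.4% and 5.55%. *H2ac4*, which encodes a core H2A, was at 7.16 to 7.53 in experiment 1, at 8.35 to 8.65 in experiment 2 and at 9.13 to 9.98 in experiment 3. *H2ac15*, another H2A gene, was at 10.86 to 11.16, 11.19 to 11.37 and 11.98 to 12.31 in the same order. *H2bc4*, an H2B gene, went the other way, with 10.68 to 11.17 in experiment 3 against 11.36 to 11.67 in experiments 1 and 2. The ranges of the experiments do not overlap for any of these 3 genes. How the deposited values were scaled across experiments is not stated, and the highest array median was 5.75, 5.93 and 5.39 in experiments 1, 2 and 3. Comparisons below are therefore taken within an experiment.

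*Card9* checked the labels. Its log2 signal was 8.08 to 8.75 on the 6 wild-type arrays and 5.56 to 6.42 on the 6 *Card9*-/- arrays, which do not overlap (difference over both surfaces −2.40, standard error 0.15, limma adjusted p = 6.80e-05). The median of 11 neutrophil markers was 12.36 to 12.63 on every array. Over the arrays the median of 6 promyelocyte (granulocyte precursor) markers went from 9.06 to 11.31 and that of 9 B lineage markers from 5.06 to 8.09, and the levels of these lists are not set against each other.

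The IC surface was compared with the control surface to see whether the stimulus moved histone mRNA. Differences are log2 IC minus log2 control, so that a difference of 1 is a 2-fold difference. No histone gene had an adjusted p under 0.05 in limma, with the adjustment over all 28944 clusters, in either genotype, where 0% of all clusters did, or over both genotypes together, where 0.0104% did. The lowest adjusted p of a histone gene was 0.521 in wild-type, 0.9998 in *Card9*-/- and 0.496 over both. At an unadjusted p under 0.05 there was 1 of 30 in wild-type cells (9.59% of all clusters), 1 of 30 in *Card9*-/- cells (3.01%) and 5 of 30 over both genotypes, all 5 higher on IC (9.01%). The 95% interval of a single difference within a genotype reached a median of 0.30 to either side with 3 arrays in a group.

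Mean differences lay mostly above 0. They were above 0 for 22 of 30 genes in wild-type cells (59.7% of all clusters), for 24 in *Card9*-/- cells (46.4%) and for 22 over both genotypes (55.6%). The median difference was 0.11 in wild-type cells (SD of the medians of 3 experiments 0.19), 0.15 in *Card9*-/- cells (SD 0.19) and 0.13 over both (SD 0.16), beside 0.039, −0.011 and 0.015 over all clusters. In experiments 1, 2 and 3 the median was 0.035, −0.015 and 0.33 in wild-type cells and 0.10, −0.024 and 0.35 in *Card9*-/- cells. Without experiment 3 the medians were 0.039 in wild-type, 0.056 in *Card9*-/- and 0.039 over both genotypes.

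In experiment 3 the difference exceeded 0.5 in both genotypes for 9 of 30 genes (*H1f1*, *H1f5*, *H2ac4*, *H2bc14*, *H2bc18*, *H3c7*, *H4c3*, *H4c6* and *H4c8*), which was true of 1.90% of all clusters and of 2.76% of clusters above the median signal. In experiments 1 and 2 it was true of 0 histone genes, against 0.418% and 0.342% of all clusters. The threshold of 0.5 was chosen after the values were seen, and experiment 3 gives a single array for each group, so that this is a description with no test. All 9 are classed as replication-dependent, as are 24 of the 30, and *H3c7* was near the lower end of the scale. *H2bc1* (0.54 in wild-type and 0.42 in *Card9*-/- cells) and *H1f10* (0.61 and 0.21) exceeded 0.5 in wild-type cells alone. So did *H2bc9* (0.80 and 0.47), *H4c14* (0.62 and 0.45) and *H2bc3* (0.504 and 0.44), which are classed as replication-dependent. *H2bc22* (0.25 and 0.82) exceeded 0.5 in *Card9*-/- cells alone. The other germ-cell genes exceeded it in neither genotype. After quantile normalization 6 of the 30 exceeded the threshold. Only *H2bc21*, an H2B gene, lay below −0.5 in both genotypes in experiment 3 (2.50% of all clusters). Of the 26 clusters with several histone genes, 0 exceeded the threshold. Their median difference in experiment 3 was 0.22 in wild-type and 0.12 in *Card9*-/- cells. Most of them lay near the upper end of the scale (median mean 12.50). Their gene lists overlap and some hold identical values, so that they are not 26 separate readings.

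**Figure D2:**
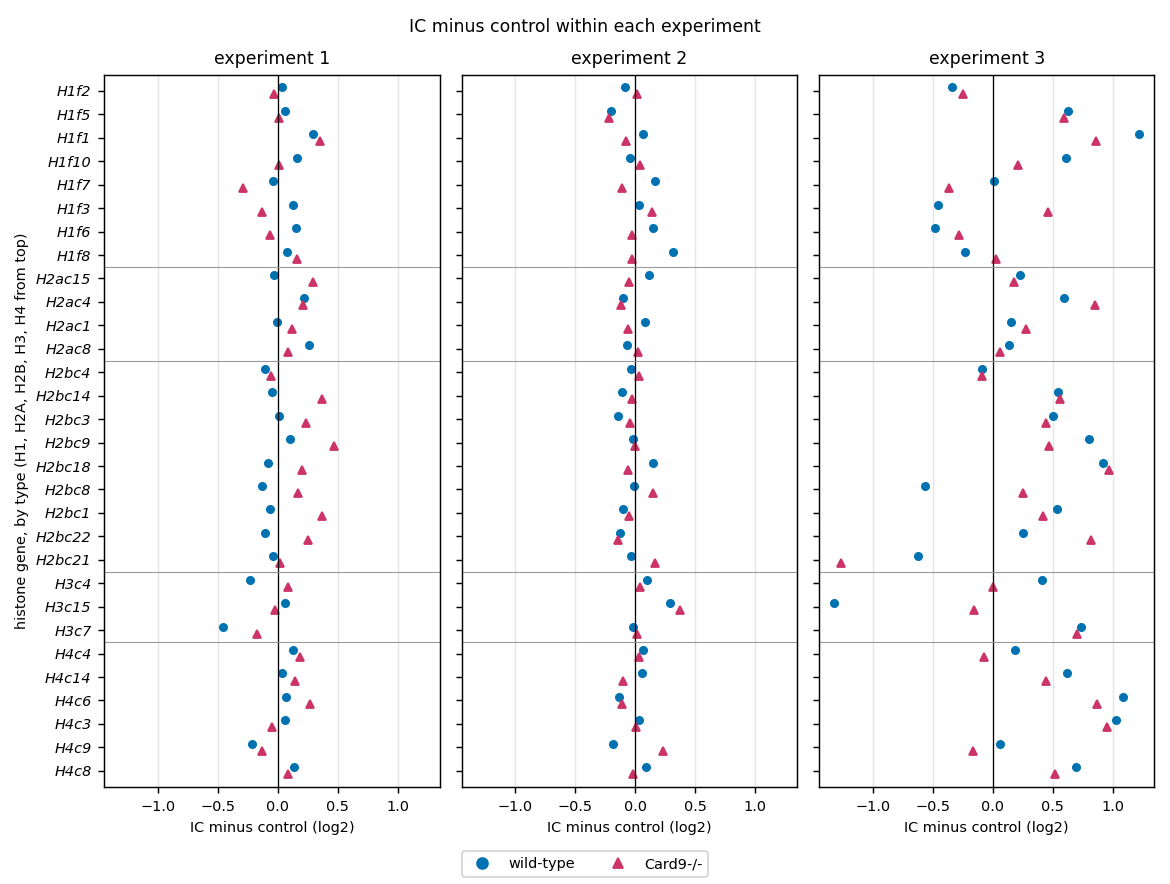
IC minus control (log2, horizontal axis) of each of the 30 histone genes within experiments 1, 2 and 3 (panels); circles are wild-type and triangles Card9-/- cells, 1 array minus 1 array each. In experiments 1 and 2 every point lies between −0.46 and 0.47, and in experiment 3 the points spread from −1.32 to 1.22 with most H2B and H4 genes to the right of 0 in both genotypes.

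*H1f1*, a linker histone gene, had the highest mean difference in wild-type cells. Its signal in experiments 1, 2 and 3 was 8.20, 7.99 and 8.63 in wild-type control, 8.49, 8.06 and 9.85 in wild-type IC, 8.63, 8.09 and 9.77 in *Card9*-/- control and 8.98, 8.01 and 10.64 in *Card9*-/- IC. The groups overlap, and the 3 highest values were those of experiment 3 in wild-type IC and in both *Card9*-/- groups. The difference was 1.22 in wild-type and 0.87 in *Card9*-/- cells in experiment 3 and between −0.074 and 0.35 in the other experiments. Over both genotypes it was 0.45 (standard error 0.19, limma adjusted p = 0.526), and 0.16 without experiment 3.

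Among H4 genes, *H4c6* and *H4c3* behaved alike in experiment 3. *H4c6* was at 9.72, 9.67 and 10.33 in wild-type control, at 9.79, 9.53 and 11.42 in wild-type IC, at 9.84, 10.11 and 10.80 in *Card9*-/- control and at 10.10, 10.001 and 11.67 in *Card9*-/- IC. Its IC minus control difference was 1.09 in wild-type and 0.87 in *Card9*-/- cells in experiment 3. In the same order it was 0.070 and 0.26 in experiment 1 and −0.14 and −0.11 in experiment 2. *H4c3* was at 8.80 and 9.04 on control and at 9.83 and 9.99 on IC in experiment 3 (wild-type and *Card9*-/- in each case), while its other 8 values lay between 8.27 and 8.53. Its IC difference was 1.03 and 0.95 in experiment 3 and between −0.047 and 0.060 in the others.

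*H4c8* was at 5.27, 5.50 and 5.99 in wild-type control, at 5.41, 5.59 and 6.68 in wild-type IC, at 5.46, 5.81 and 6.35 in *Card9*-/- control and at 5.54, 5.79 and 6.87 in *Card9*-/- IC. Wild-type IC was above wild-type control in all 3 experiments, by 0.13, 0.088 and 0.70, a mean of 0.31 (standard error 0.14, limma adjusted p = 0.521; 0.11 without experiment 3). Over both genotypes it was 0.25 (standard error 0.10, limma adjusted p = 0.510; 0.071 without experiment 3). As a group, the 6 H4 genes had a median difference of 0.27 in wild-type and 0.18 in *Card9*-/- cells, with 0.66 and 0.48 in experiment 3. *H4c4*, whose signal was near the upper end of the scale, stood at 0.18 and −0.069 in that experiment.

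For the 9 H2B genes the median difference was 0.12 in wild-type and 0.25 in *Card9*-/- cells, with 0.50 and 0.44 in experiment 3. *H2bc9* was at 9.47, 9.48 and 9.72 in wild-type control, at 9.57, 9.47 and 10.52 in wild-type IC, at 9.25, 9.82 and 10.04 in *Card9*-/- control and at 9.72, 9.82 and 10.51 in *Card9*-/- IC. The highest values were those of both genotypes on IC in experiment 3. Over both genotypes its difference was 0.30 (standard error 0.12, limma adjusted p = 0.496), the smallest p of a histone gene in this comparison, and 0.14 without experiment 3. *H2bc18* was at 8.47 and 8.86 on control and 9.39 and 9.83 on IC in experiment 3, and between 7.48 and 7.71 on the other 8 arrays. *H2bc14* and *H2bc22* had mean differences in *Card9*-/- cells of 0.30 and 0.31 (standard errors 0.14 and 0.16, limma adjusted p = 0.9998 for both; 0.17 and 0.055 without experiment 3).

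Some H2B genes were lower on IC in experiment 3. *H2bc21* was at 5.50 and 5.52 on control and at 4.88 and 4.26 on IC in that experiment (wild-type and *Card9*-/-), whereas its other 8 values were 5.48 to 5.94. Its lowest 2 values were thus those of the IC arrays of experiment 3. *H2bc4* differed by −0.088 and −0.088 in experiment 3, where the median absolute difference of all clusters was 0.23 in wild-type and 0.19 in *Card9*-/- cells. Among H1 genes, *H1f2* had differences of −0.34 and −0.25 in experiment 3, whereas those of *H1f5* were 0.63 and 0.59.

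The remaining types differed less or unevenly. The 4 H2A genes had median differences of 0.11 and 0.13, and all 4 means were above 0 in both genotypes. *H2ac4* was the highest of them within an experiment, with 0.60 and 0.85 in experiment 3. The 3 H3 genes had medians of 0.087 and 0.063. *H3c15* was at 6.52 in wild-type control and 5.20 in wild-type IC of experiment 3, a difference of −1.32, but at 6.24 and 6.08 in *Card9*-/- cells. The 8 H1 genes had medians of 0.050 and 0.070. The replication-independent *H1f10* was at 5.64 and 6.25 in wild-type cells and 6.15 and 6.36 in *Card9*-/- cells in experiment 3, control first, and at 6.16 to 6.36 on the other 8 arrays. The testis gene *H1f7* lay below control in all 3 experiments in *Card9*-/- cells, with differences of −0.29, −0.11 and −0.37 (mean −0.26, standard error 0.096, limma adjusted p = 0.9998).

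Between genotypes, *Card9*-/- was compared with wild-type on each surface and over both. No histone gene passed on control, where 0.0380% of all clusters did, on IC (0.162%) or over both surfaces (0.529%). At an unadjusted p under 0.05 there were 0 of 30 on control (4.64% of all clusters), 1 of 30 on IC (9.13%) and 2 of 30 over both surfaces, both higher in *Card9*-/- cells (10.1%). The lowest adjusted p over both surfaces was 0.384. Mean differences were above 0 for 20 of 30 genes on control (57.4% of all clusters), 25 on IC (46.4%) and 23 over both (53.5%). The medians were 0.085, 0.087 and 0.083 (SD over experiments 0.031, 0.029 and 0.014), beside 0.026, −0.014 and 0.0091 over all clusters. In contrast to the IC response, the median over both surfaces was of similar size in the experiments, with 0.064, 0.072 and 0.045. The genes behind it were less even, with 18, 25 and 17 of 30 above 0. In the same order the type medians were 0.0056, 0.032 and 0.22 for H1 and 0.11, 0.15 and −0.048 for H2A. For H2B they were −0.033, 0.0815 and −0.0039, and for H3 0.27, 0.066 and −0.055.

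Higher signals in *Card9*-/- cells in all 6 differences (3 experiments on 2 surfaces) were seen for 5 of 30 genes, *H1f5*, *H4c3*, *H4c6*, *H4c8* and *H4c14*, against 3.48% of all clusters, and lower signals in all 6 for 0 genes, against 4.28%. IC was above control in all 6 corresponding differences for 0 histone genes (3.10% of all clusters) and below it for 0 (3.62%). Of the 26 clusters with several histone genes, 0 were higher in *Card9*-/- cells in all 6 differences. For 3 of these 26 clusters IC was above control in all 6. After median centring of the arrays 3 of the 5 genes remained (*H1f5*, *H4c6* and *H4c8*). The 4 H4 genes among them are close copies whose probes may bind each other's mRNA, so that they are not independent readings. The median of the 6 H4 genes over both surfaces was 0.14, 0.12 and 0.21 in experiments 1, 2 and 3. That of the 6 clusters with several H4 genes was 0.095, 0.019 and 0.072. *H4c9* was below wild-type on control in all 3 experiments, by −0.14, −0.070 and −0.016, with a mean of −0.029 over both surfaces. *H4c4* was below wild-type on IC in experiment 3 (−0.11).

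*H4c6* was above wild-type on control by 0.11, 0.43 and 0.47 and on IC by 0.31, 0.47 and 0.25 in experiments 1, 2 and 3. Over both surfaces this came to 0.34 (95% interval −0.00011 to 0.68, limma adjusted p = 0.496). *H4c8* was higher by 0.18, 0.31 and 0.36 on control and by 0.13, 0.20 and 0.18 on IC, or 0.23 over both (95% interval 0.012 to 0.44, adjusted p = 0.461, limma). *H4c14*, an H4 gene of chromosome 3, was higher by 0.15 over both surfaces (95% interval −0.060 to 0.36, limma adjusted p = 0.672). Mean signals in experiments 1, 2 and 3 were 9.86, 9.83 and 11.06 for *H4c6* and 5.42, 5.67 and 6.47 for *H4c8*. For *H4c14* they were 10.87, 11.06 and 11.45. The differences over both surfaces are smaller than the distance of experiment 3 from the others, but for *H4c6* larger than that between experiments 1 and 2. The *Card9*-/- and wild-type arrays overlap when experiments are not separated.

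*H1f1* had the largest difference over both surfaces, 0.48 (95% interval 0.077 to 0.89, limma adjusted p = 0.384). It was higher in *Card9*-/- cells by 0.43, 0.093 and 1.15 on control and by 0.49 and 0.79 on IC in experiments 1 and 3, whereas the difference on IC in experiment 2 was −0.047. Without experiment 3 the difference was 0.24, and without experiment 2 it was 0.71. *H1f5* was higher by 0.19 over both surfaces (95% interval −0.078 to 0.47, limma adjusted p = 0.675; 0.11 without experiment 3). *H2ac15* was higher by 0.14, 0.11 and 0.13 in the 3 experiments, a mean of 0.13 (95% interval −0.031 to 0.28, limma adjusted p = 0.621). *H2bc9* and the testis gene *H2ac1* had the next smallest p, with 0.16 and 0.099 (limma adjusted p = 0.743 and 0.772; 0.063 and −0.0016 without experiment 2). The lowest difference was that of *H2bc4*, −0.094 (limma adjusted p = 0.813), which was 0.064 and 0.060 in experiments 1 and 2 and −0.41 in experiment 3, and 0.062 without the latter.

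**Figure D3:**
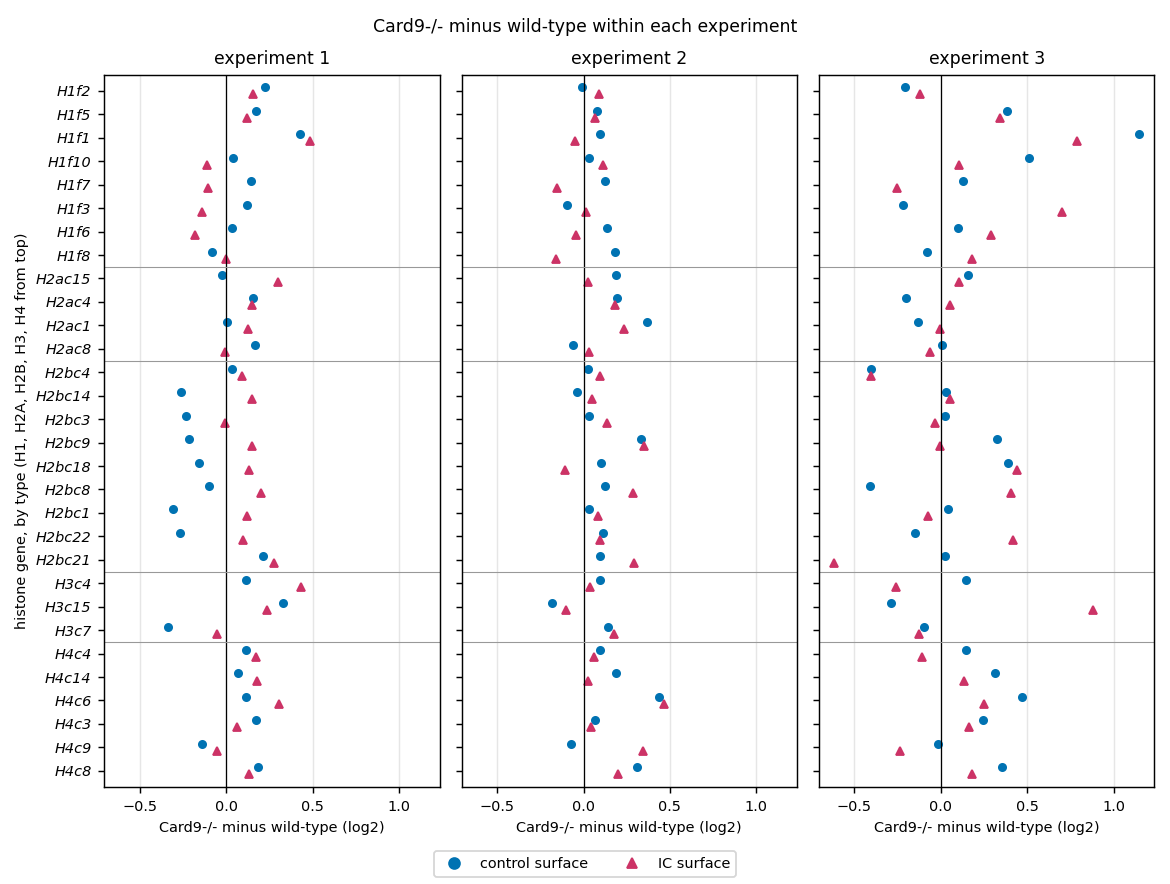
Card9-/- minus wild-type (log2, horizontal axis) of each of the 30 histone genes within experiments 1, 2 and 3 (panels); circles are the control and triangles the IC surface, 1 array minus 1 array each. H4c6 and H4c8 lie to the right of 0 in all 6 positions, and H1f1 is farthest to the right on the control surface of experiment 3, at 1.15.

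An interaction term compared the IC responses, *Card9*-/- response minus wild-type response. No histone gene passed (0% of all clusters), 2 of 30 had an unadjusted p under 0.05 (3.68% of all clusters), and the mean was above 0 for 17 of 30 (43.6%). The median was 0.027 (SD over experiments 0.063), beside −0.030 over all clusters. *H2bc8*, an H2B gene, was at 7.91, 7.44 and 7.26 in wild-type control and 7.78, 7.43 and 6.70 in wild-type IC, and at 7.82, 7.57 and 6.85 in *Card9*-/- control and 7.98, 7.72 and 7.10 in *Card9*-/- IC. IC was below control in all 3 experiments in wild-type cells and above it in all 3 in *Card9*-/- cells. The interaction was 0.43 (95% interval 0.060 to 0.79, limma adjusted p = 0.9992), and 0.23 without experiment 3. On IC, *H2bc8* was higher in *Card9*-/- cells by 0.20, 0.29 and 0.40 (mean 0.30, limma adjusted p = 0.473).

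*H1f7* gave the other small p, with an interaction of −0.30 (95% interval −0.60 to −0.0029, limma adjusted p = 0.9992). It was at 6.20, 6.41 and 5.82 in wild-type control, 6.16, 6.57 and 5.83 in wild-type IC, 6.35, 6.53 and 5.95 in *Card9*-/- control and 6.06, 6.42 and 5.58 in *Card9*-/- IC. The *Card9*-/- value was thus above the wild-type value on control and below it on IC in every experiment. *H2bc22* had the next smallest p, with 0.31 (limma adjusted p = 0.9992; 0.17 without experiment 3).

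Genes that make and use histone mRNA and genes of dividing cells were read from lists for comparison. Of 17 factors of histone gene transcription and mRNA 3′ end formation, 29 DNA replication genes, 24 mitosis genes, 13 histone chaperones and 9 replication-independent histone variants (*H1f10* among them), 0 passed in either direction in any of the 7 comparisons. In these comparisons at most 0.529% of all clusters passed. *Slbp*, which encodes the stem-loop binding protein, differed by −0.043 between IC and control over both genotypes (standard error 0.077, limma adjusted p = 0.899) and by −0.12 between *Card9*-/- and wild-type over both surfaces (limma adjusted p = 0.688). Its IC minus control difference was −0.19 in wild-type and 0.11 in *Card9*-/- cells (interaction 0.30, limma adjusted p = 0.9992), and its *Card9*-/- minus wild-type difference was −0.25, −0.27 and −0.27 on control in experiments 1, 2 and 3 (mean −0.26, limma adjusted p = 0.954) and 0.032 on IC (limma adjusted p = 0.959). *Npat* and *Hinfp* differed by 0.089 and 0.20 between IC and control over both genotypes (limma adjusted p = 0.758 and 0.455), and that of *Npat* was 0.17 without experiment 1 and 0.046 without experiment 3. Between genotypes the smallest p values of the factors were those of *Lsm10*, a subunit of the U7 snRNP that processes histone mRNA (−0.34, limma adjusted p = 0.271; −0.21 without experiment 3), and of *Cpsf3*, the endonuclease that cuts it (0.19, limma adjusted p = 0.425; 0.11 without experiment 1). *Hinfp* was at −0.12 and *Npat* at 0.026 in that comparison, the latter at −0.013 without experiment 3.

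In experiment 3 the median IC minus control difference of the DNA replication genes was −0.11 in wild-type and −0.088 in *Card9*-/- cells, with 9 and 8 of 29 genes above 0, and 22 of the 30 histone genes were above 0 in each genotype. The lists were not tested against each other. That of mitosis genes was −0.18 and 0.043 (3 and 16 of 24 above 0), that of the histone mRNA factors −0.17 and −0.15, and that of the replication-independent variants 0.16 and 0.10. Between genotypes, *Prim1* and *Rrm2*, which encode a primase subunit and a subunit of ribonucleotide reductase, had the smallest p of the DNA replication list (0.25 and 0.18 over both surfaces, limma adjusted p = 0.213 and 0.481; that of *Rrm2* was 0.28 without experiment 2), and the median of that list was 0.011, −0.038 and 0.19 in experiments 1, 2 and 3. *Kif11* and *Cdc20* of the mitosis list were at 0.12 and −0.14, *Atrx* and *Nap1l4* of the chaperones at 0.22 and −0.27 and the variant *H3f3a* at −0.12, with limma adjusted p of 0.268 or more.

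**Figure D4:**
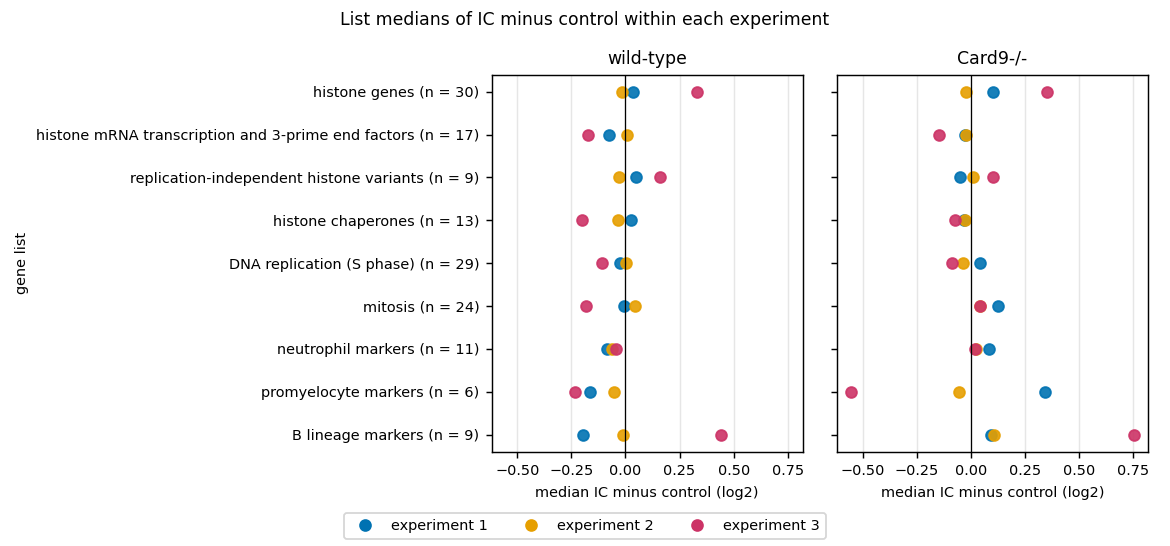
Median IC minus control (log2, horizontal axis) of the histone genes and of 8 other gene lists (vertical axis, with the number of genes) in wild-type and Card9-/- cells (panels); each point is an experiment. In experiment 3 the histone genes lie at 0.33 and 0.35, B lineage markers at 0.44 and 0.75, and DNA replication genes at −0.11 and −0.088.

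Markers of other cell types also differed between the surfaces in experiment 3. The 9 B lineage markers had a median IC minus control difference of 0.44 in wild-type and 0.75 in *Card9*-/- cells in experiment 3, with 7 and 6 of 9 above 0. Their summed linear signal went from 1958 to 3484 in wild-type and from 2651 to 5160 in *Card9*-/- cells in that experiment, and changed from 898 to 779 and from 1908 to 1831 in experiment 1 and from 370 to 365 and from 368 to 389 in experiment 2. It ranged from 370 to 1958 in wild-type control, from 365 to 3484 in wild-type IC, from 368 to 2651 in *Card9*-/- control and from 389 to 5160 in *Card9*-/- IC. The 6 promyelocyte markers went the other way in experiment 3, with medians of −0.23 and −0.55 and 1 and 0 of 6 above 0. Their summed signal ranged from 5437 to 11412 in wild-type control, 5226 to 9795 in wild-type IC, 3962 to 13773 in *Card9*-/- control and 4642 to 9621 in *Card9*-/- IC. Log2 signals have no level of 0, and the lowest mean of a B lineage marker was 4.84 (*Vpreb1*). The part of these cells in the histone values was not tested. In such bulk samples, fewer cells of a type and less RNA per cell cannot be told apart.

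B lineage markers also differed between genotypes. Their median over both surfaces was 1.08, −0.0017 and 0.42 in experiments 1, 2 and 3. Means were above 0 for 9 of 9 (53.5% of all clusters), with *Vpreb1* at 0.0012. At an unadjusted p under 0.05 there were 7 of 9 (10.1% of all clusters), and 0 passed (0.529%). *Pax5* and *Rag1* were both higher in *Card9*-/- cells by 0.46 (limma adjusted p = 0.239 and 0.232). Without experiment 1, where they differed by 0.92 and 0.90, the values were 0.23 and 0.24. The 6 eosinophil and basophil markers had medians of −0.21, 0.18 and 1.16, and their summed signal ranged from 2570 to 4684 in wild-type control, from 2061 to 4259 in wild-type IC, from 2789 to 9065 in *Card9*-/- control and from 2847 to 7545 in *Card9*-/- IC. In experiments 1, 2 and 3 the median difference between genotypes over both surfaces was 0.14, 0.12 and 0.21 for the H4 genes. That of the promyelocyte markers was −0.54, 0.25 and 0.14 (1, 6 and 5 of 6 above 0). That of the neutrophil markers was 0.0097, 0.084 and −0.15 (8, 11 and 1 of 11 above 0). The part of these cells in the H4 values was not tested.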

How the data were processed

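Total RNA (150 ng) of 12 neutrophil samples had been amplified, labelled and hybridized to Affymetrix mouse gene arrays. Per the file headers and values, the deposited table holds log2 signals per transcript cluster made by the authors, with background correction, summarization and normalization not given in the sources used here. No read depth applies to arrays; precision is set by their number. Of 35556 rows, 6612 control probe sets were left out, and 28944 clusters were tested without a signal filter. Gene names came from the platform annotation and RefSeq. Samples were grouped by their labels. The 4 groups were fitted in limma 3.58.1 (R 4.3.3) with lmFit and eBayes and the experiment as a fixed block (6 residual and 5.40 prior degrees of freedom), and two-sided p values were adjusted over all clusters (Benjamini-Hochberg, threshold 0.05). This block pairs the arrays, because the labels number the experiments alike in all 4 groups, in the titles and under the tag time; deviations from the group means correlated at 0.671 to 0.867 for the same experiment number and at −0.727 to 0.355 for different numbers, across clusters. Nothing in the labels names single animals. The block takes out the level of each experiment. The p values therefore measure how differences between groups varied over these experiments, with the spread moderated across clusters. Medians over the histone genes are descriptions without a test. Genes named are *Card9*, the 2 of highest mean signal in each type, the 8 of smallest p between genotypes over both surfaces and the 3 of smallest p in each other comparison, the extremes, and the list genes of smallest p. *H1f10*, *Slbp*, *Npat* and *Hinfp* were named in any case, and other genes, such as *H4c3*, *H2bc18*, *H2bc21* and *H3c7*, after their values were seen. The histone genes and all lists were chosen with earlier results of these data known. Alternatives were no block, a random block, quantile normalization, median centring, clusters above the median signal, limma-trend, robust eBayes, leaving out each experiment, and other choices of members. The fit was tested on simulated data. Further steps and figures used Python 3.11.15, numpy 2.4.6, pandas 2.3.3 and matplotlib 3.10.9.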

Additional observations from a re-analysis of the deposited data

Results flagged for a closer look

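*H2bc8* had an IC response below 0 in all 3 wild-type experiments (mean −0.24) and above 0 in all 3 *Card9*-/- experiments (mean 0.19). The interaction test gave 0.43 with a limma adjusted p of 0.9992, and 2.78% of all clusters had responses of opposite sign in every experiment. *H1f7* was higher in *Card9*-/- than in wild-type cells in all 3 experiments on control (mean 0.13) and lower in all 3 on IC (mean −0.17), with an interaction of −0.30 and a limma adjusted p of 0.9992.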

How the results depend on the processing

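The count of histone genes past the threshold was 0 in all 7 comparisons. It was also 0 in all 49 combinations of a comparison with an alternative fit, scaling or filter. The same held in all 21 combinations of a comparison with an experiment left out. At an unadjusted p under 0.05 the 5 genes of IC against control over both genotypes became 0 with no replicate block, 0 without experiment 3 and 12 without experiment 2, and 3 to 6 under the other scalings and fits. The block changed no call, and without it 0 genes passed as well. Among the histone genes named for a small p or as an extreme, directions held in all 189 combinations of a difference with an alternative fit, scaling or filter. Of these alternatives, only quantile normalization and median centring can change a difference in this balanced design. The others change the p values alone and could not have turned a direction. Leaving out an experiment turned 2 of these differences, both between genotypes over both surfaces. That of *H2ac1* was −0.0016 without experiment 2 (up to 0.18 without another) and that of *H2bc4* 0.062 without experiment 3 (down to −0.17 without another). Other named genes were not part of this count. Among them, the difference of *Npat* between genotypes over both surfaces also turned without experiment 3. The median difference of the histone genes moved by more than its SD over experiments as follows. Median centring gave 0.10 for the difference of the IC responses, 0.0305 between genotypes on control and 0.067 between genotypes over both surfaces. Quantile normalization gave 0.064 and adding the clusters with several histone genes 0.053 for the latter; on IC that addition gave 0.038, and leaving out the replication-independent and germ-cell genes 0.12. Leaving out an experiment gave 0.049 to 0.089 over both surfaces. It gave 0.039 to 0.17 for the IC response in wild-type cells, 0.056 to 0.22 in *Card9*-/- cells, 0.039 to 0.18 over both genotypes and −0.029 to 0.013 for their difference. Each gene has a single cluster of its own, so that a mean over its clusters changes nothing. Among alternatives chosen after seeing the data, the 9 genes over 0.5 on IC in experiment 3 became 6 after quantile normalization, 8 after median centring and 13 with a threshold of 0.3, and the 5 genes higher in *Card9*-/- cells in all 6 differences became 6 and 3 under the same scalings. The cause of these changes was not tested. The number of arrays limits what can be detected.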
